A study of Mus musculus with 36 samples.

Results

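The longest stretches of tagged histone H4 in mouse embryonic stem cells are described here: called regions of 1000 bp or more in the peak lists of 3 HA-tagged H4 proteins. H4K91Q and H4K91R replace lysine 91 of H4 by glutamine and by arginine, and H4WT is the unchanged protein. Each was carried with an HA epitope tag on a PiggyBac transposon integrated stably into the stem cells, beside the cells' own H4 genes, and a line with the empty PiggyBac vector served as control. The titles call all 4 lines parental, in contrast to Hira, DAXX and H3.3 knockout lines of the same series. Chromatin was fixed with paraformaldehyde, sheared by sonication and recovered on magnetic anti-HA beads, with 1 library per line, and each list was called against the input chromatin of its own line. The series has 36 samples, and the other 32 were not analysed here. The labels give no clone number for the lines, and nothing in them links 2 libraries as replicates.

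Members were peaks of 1000 bp or more that did not touch an empty-vector peak. That left 759 H4K91Q regions of 14206 free of the empty vector (5.34%, 95% interval 4.98 to 5.73), 630 H4K91R regions of 47898 (1.32%, 1.22 to 1.42) and 1444 H4WT regions of 67078 (2.15%, 2.04 to 2.27). The 3 lists together hold 2833 members beside 126349 narrower regions. The members were chosen by width as the authors' caller set it, so width, the authors' fold and anything read from the same list as the width are given as description. All intervals are exact (Clopper-Pearson) 95% intervals, which speak to counting error alone. With a single library per line there is no replicate check and no p-value. Read numbers are not in the lists, so depth is unknown, and both the length of a list and the width at which the caller ends a region can move with depth.

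Histone H4 pairs with H3, and an H3-H4 tetramer with H2A-H2B dimers forms the nucleosome. Lysine 91 lies in the globular core of H4, near the surface where tetramer and dimers meet, and can be acetylated. Glutamine at such a site is often used to imitate the acetylated lysine, whereas arginine keeps the positive charge. CpG islands, short stretches rich in CG dinucleotides, hold the starts of most broadly used genes and of many developmental regulators. Imprinted genes are read from 1 parental copy, under the control of CpG-rich stretches that carry DNA methylation on a single parental copy.

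The DNA under wide regions is shown by 4 promoters that lie wholly inside such a region. Each is the stretch from 250 bases before to 50 after a gene start, from RefSeq on build GRCm38.p6 (mm10), printed 5′ to 3′ on the gene's strand with every CG in capitals. Nnat, the imprinted gene of neuronatin, stood for places wide in all 3 lists. Chst2, a carbohydrate sulfotransferase gene, stood for places with a wide H4WT region and no mutant region. Il3ra, the interleukin-3 receptor alpha chain gene, lay in wide H4K91R and H4WT regions and in no H4K91Q region. Angptl6, an angiopoietin-like gene, lay in a wide H4K91Q region and in no H4WT region. In each class the promoter under the widest region was taken (by summed width for Nnat), passing over predicted genes. Nnat was at chr2:157559828-157560127 on the plus strand, Chst2 at chr9:95407221-95407520 on the minus strand, Il3ra at chr14:14346245-14346544 on the plus strand and Angptl6 at chr9:20879661-20879960 on the minus strand.
Nnat: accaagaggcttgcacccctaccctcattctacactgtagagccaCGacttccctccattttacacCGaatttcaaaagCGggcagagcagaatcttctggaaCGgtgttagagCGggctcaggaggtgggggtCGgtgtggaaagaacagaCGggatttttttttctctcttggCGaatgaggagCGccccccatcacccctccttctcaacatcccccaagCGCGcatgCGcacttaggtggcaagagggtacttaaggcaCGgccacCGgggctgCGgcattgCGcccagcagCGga
Chst2: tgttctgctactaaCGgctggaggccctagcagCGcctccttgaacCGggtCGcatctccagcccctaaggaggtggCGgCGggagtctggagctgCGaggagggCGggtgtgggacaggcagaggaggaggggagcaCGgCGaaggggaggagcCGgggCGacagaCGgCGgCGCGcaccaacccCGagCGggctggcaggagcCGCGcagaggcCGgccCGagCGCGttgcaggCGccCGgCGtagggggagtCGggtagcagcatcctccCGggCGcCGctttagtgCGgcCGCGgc
Il3ra: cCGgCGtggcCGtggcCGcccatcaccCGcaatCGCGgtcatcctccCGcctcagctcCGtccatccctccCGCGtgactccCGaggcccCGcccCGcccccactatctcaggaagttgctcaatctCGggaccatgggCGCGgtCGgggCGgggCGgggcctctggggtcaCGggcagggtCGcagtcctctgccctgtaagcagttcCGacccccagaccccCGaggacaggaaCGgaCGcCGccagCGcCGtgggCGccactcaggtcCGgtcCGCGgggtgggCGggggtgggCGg
Angptl6: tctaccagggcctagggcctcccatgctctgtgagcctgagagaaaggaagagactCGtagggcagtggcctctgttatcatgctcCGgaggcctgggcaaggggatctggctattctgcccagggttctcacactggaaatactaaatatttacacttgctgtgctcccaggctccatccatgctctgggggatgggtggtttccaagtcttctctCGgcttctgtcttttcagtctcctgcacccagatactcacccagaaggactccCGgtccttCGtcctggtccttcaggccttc

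The Nnat promoter holds 17 CG, Chst2 34, Il3ra 35 and Angptl6 5. CG reads the same on both strands, so 1 strand was counted. The regions over them were 2917 bp (H4K91Q), 2811 bp (H4K91R) and 1370 bp (H4WT) wide at Nnat. At Chst2 a single H4WT region of 2764 bp covered the promoter. At Il3ra the regions were 4070 bp (H4K91R) and 1437 bp (H4WT) wide, and at Angptl6 the H4K91Q region was 2783 bp wide, with a narrower H4K91R region touching the promoter.

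Over all promoters with a wide region, the median CG count was highest under H4WT and lowest under H4K91Q. The sequence table gave 21263 promoters of 17492 protein-coding genes, with none for chromosome 18, and 35.9% of them hold 20 or more CG. Promoters under a wide H4WT region had a median of 30 CG, and 573 of 707 held 20 or more (81.0%, 78.0 to 83.9). That compares with 65.0% (63.9 to 66.1) of 7833 promoters that met narrower H4WT regions only and 15.5% (14.9 to 16.2) of 12723 with none. Wide H4K91R regions covered 109 promoters with a median of 26 CG, 70.6% of them at 20 or more (61.2 to 79.0), close to the 65.3% (63.7 to 66.9) under narrower H4K91R regions. Wide H4K91Q regions covered 26 promoters with a median of 17 CG, and 34.6% held 20 or more (17.2 to 55.7), against 49.0% (34.4 to 63.7) of 49 promoters under narrower H4K91Q regions. The H4K91Q intervals overlap each other and the share of all promoters, so a difference was not detectable at these numbers.

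H4WT had the most wide regions and H4K91Q the longest. The median member was 1286 bp wide for H4K91Q, 1230 bp for H4K91R and 1208 bp for H4WT, and the widest was 11115, 7756 and 3971 bp. Of the members, 99 H4K91Q, 63 H4K91R and 59 H4WT regions reached 2 kb, and 6, 5 and 0 reached 5 kb. Wide regions held 18.9% of the bases in the H4K91Q list, 5.67% in H4K91R and 8.23% in H4WT. The authors' fold over background, used only within a list, was 7.65 at the median for wide against 5.04 for narrower H4K91Q regions. The same pair was 10.9 and 5.28 in H4K91R, and 9.73 and 5.64 in H4WT. Summits were spread along the wide regions, at a median of 51.2% (H4K91Q), 47.7% (H4K91R) and 50.5% (H4WT) of the width. The lower and upper quartiles were 31.3 and 69.2%, 28.9 and 65.6%, and 29.2 and 69.5% in the same order. Before removal there were 774, 690 and 1565 peaks of this width, of which 15, 60 and 121 touched the empty vector. The empty-vector list itself had 9 such peaks among 3007, and 3, 9 and 9 of these met the H4K91Q, H4K91R and H4WT lists.

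**Figure D1:**
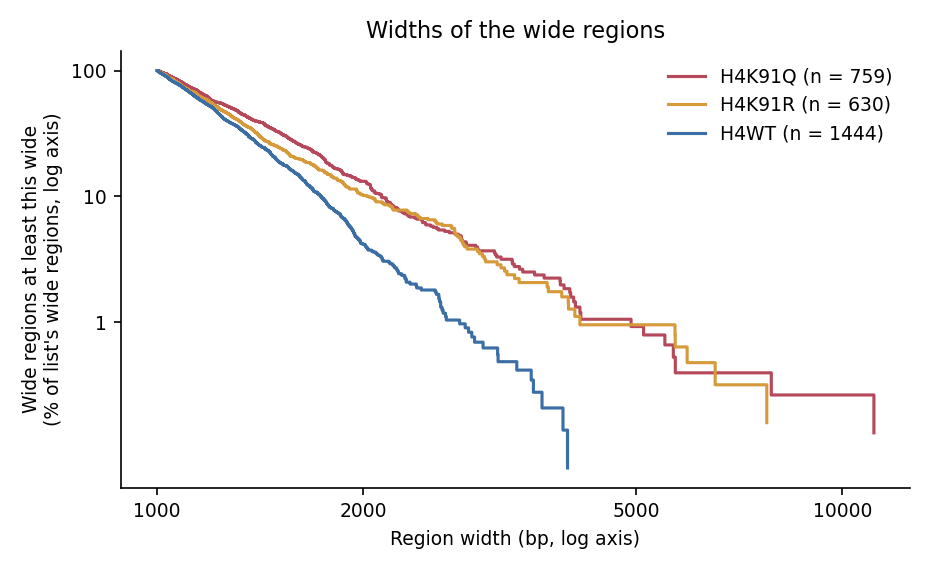
Share of each list's wide regions (vertical axis, percent, log axis) that are at least as wide as the value on the horizontal axis (bp, log axis), with 1 line per list. The H4K91Q and H4K91R lines run on to 11115 and 7756 bp, and the H4WT line ends at 3971 bp.

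Regions of 1000 bp to under 1050 bp numbered 84 in H4K91Q, 88 in H4K91R and 240 in H4WT, beside 68, 94 and 270 of 950 bp to under 1000 bp. Their median fold was 6.74 just inside and 7.18 just outside for H4K91Q, 9.11 and 8.62 for H4K91R, and 9.46 and 9.12 for H4WT. The share at gene ends was 2.38% and 1.47%, 31.8% and 23.4%, and 50.4% and 54.1% in the same order. The share outside genes was 66.7% and 79.4% for H4K91Q, 21.6% and 39.4% for H4K91R, and 5.83% and 6.30% for H4WT. H4WT regions were met by 25.0% of H4K91Q regions just inside the limit and 41.2% just outside, and by 87.5% and 88.3% of H4K91R regions.

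The widest single regions are named by list, those of H4K91Q first. The widest H4K91Q region ran over Srrm2, which encodes a scaffold protein of nuclear speckles, and reached Elob, an elongin gene, at chr17:23814553-23825667. Over its 11115 bp, H4K91R had 4 regions with a widest of 5702 bp and H4WT had 11 with a widest of 824 bp. Ezr, which encodes the membrane-cytoskeleton linker ezrin, held H4K91Q regions of 7874 bp (chr17:6742131-6750004) and, with Sytl3 beside it, 5666 bp (chr17:6735608-6741273). H4WT regions there reached 887 and 994 bp. Spred2, a brake on Ras signalling, had widths of 5507 bp in H4K91Q, 2407 bp in H4K91R and 1380 bp in H4WT. Agrn, which encodes agrin of the nerve-muscle synapse, had 4916, 3723 and 1115 bp in that order. Polrmt, the mitochondrial RNA polymerase gene, was wide throughout, at 5704, 5935 and 3911 bp, and its region had the highest fold among wide regions of H4K91R (57.8) and of H4WT (33.5). Since these places were taken from the widest H4K91Q regions, smaller widths in the other lists are favoured by the choice. H4WT had several regions at each of them: 3 at each Ezr place and 4 each at Spred2, Agrn and Polrmt.

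The widest H4K91R region, 7756 bp, was on the Y chromosome at chrY:90737238-90744993, where H4K91Q reached 4001 bp and H4WT 3971 bp. Crlf2, the thymic stromal lymphopoietin receptor gene, had an H4K91R region of 6521 bp (chr5:109550646-109557166), with 6 H4K91Q regions of up to 1751 bp and 7 H4WT regions of up to 1714 bp inside it. Csf2ra, for the alpha chain of the GM-CSF receptor, had 2377 bp in H4K91Q, 4140 bp in H4K91R and 2577 bp in H4WT. Il3ra had no H4K91Q region within its H4K91R region of 4070 bp. A region of 5698 bp in H4K91R lay outside genes, with Dsg2 as the nearest gene, and met 7 H4K91Q regions of up to 896 bp and 5 H4WT regions of up to 1363 bp.

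Among H4WT regions, Plec, the gene of the cytoskeletal linker plectin, held 2 of the widest, 3645 and 3515 bp (chr15:76174869-76178513 and chr15:76178993-76182507). No H4K91Q region met either, and the widest H4K91R region there was 2486 bp. Irf2bpl, a transcriptional regulator gene, had an H4WT region of 3140 bp, no H4K91Q region and H4K91R regions of up to 1012 bp. Apc2, a relative of the Wnt regulator Apc, had 2906 bp in H4WT, none in H4K91Q and up to 1554 bp in H4K91R. Unc45b, a chaperone of muscle myosin, differed from these: H4K91R reached 3375 bp and H4WT 3349 bp, with 4 H4K91Q regions of up to 652 bp. The other places among the 10 widest H4WT regions were Polrmt, Gnas and the Y chromosome, where H4K91Q regions passed 2 kb as well.

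Wide H4WT regions lay mostly at or in genes. Wide H4K91Q regions lay mostly outside them, though less often than the narrower regions of the same list. A region was placed by its midpoint: within 1 kb of either end of a protein-coding gene, elsewhere in such a gene, or outside. For H4K91Q, 3.82% (2.57 to 5.44) of wide regions were at gene ends, against 2.10% (1.87 to 2.36) of narrower ones. For H4K91R these shares were 22.2% (19.0 to 25.7) and 20.2% (19.8 to 20.5), with overlapping intervals. For H4WT they were 54.3% (51.7 to 56.9) and 24.6% (24.3 to 25.0). Outside genes lay 66.0% (62.5 to 69.4) of wide and 76.8% (76.1 to 77.5) of narrower H4K91Q regions, 34.6% (30.9 to 38.5) and 37.9% (37.4 to 38.3) of H4K91R regions, and 4.57% (3.55 to 5.78) and 25.7% (25.4 to 26.1) of H4WT regions. The gene-end shares depend on the window: 500 bp gave 12.4% of wide H4K91R and 28.6% of wide H4WT regions, and 2 kb gave 7.77% of wide H4K91Q regions. Inside genes lay 30.2% of wide and 21.1% of narrower H4K91Q regions, 43.2% and 42.0% of H4K91R regions, and 41.1% and 49.6% of H4WT regions.

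**Figure D2:**
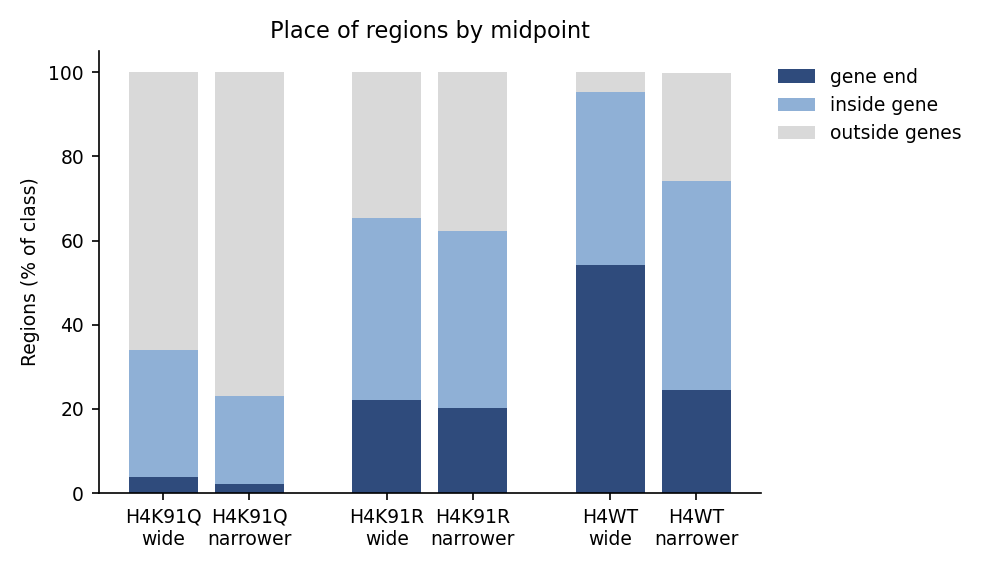
Place of regions by midpoint, as a percentage of each class (vertical axis), with the wide regions of each list left of the narrower ones. The dark gene-end part is 54.3% of wide against 24.6% of narrower H4WT regions, and 3.82% against 2.10% for H4K91Q.

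The H4WT excess was at gene starts rather than far ends. Starts and strands came from the promoter table, which covers 17492 of 21887 protein-coding genes, so starts of the other genes are not counted. The shares are of all regions outside chromosome 18. Within 1 kb of a start lay 47.3% (44.7 to 49.9) of 1408 wide H4WT regions, against 19.3% (19.0 to 19.6) of narrower ones. Far ends without a start took 3.34% (2.46 to 4.41) and 3.88% (3.73 to 4.03). In H4K91R, starts took 17.2% (14.3 to 20.4) of wide and 15.9% (15.5 to 16.2) of narrower regions. In H4K91Q they took 2.70% (1.66 to 4.14) and 0.896% (0.741 to 1.07). In H4WT and H4K91R, most wide regions over a start reached farther into the gene than before it. For 644 starts inside H4WT regions the median reach was 904 bp downstream and 319 bp upstream, and 80.3% were longer downstream. For 100 starts inside H4K91R regions the reach was 863 and 373 bp, with 75.0% longer downstream. The 24 starts inside H4K91Q regions had 784 and 597 bp, with 54.2% longer downstream, a nearly even split among few starts.

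Wide regions were set in more gene-dense surroundings than narrower ones in the H4K91Q list. The median number of protein-coding genes within 500 kb on either side was 11 for wide and 7 for narrower H4K91Q regions, 13 and 13 for H4K91R, and 17 and 16 for H4WT. Wide regions outside genes were also nearer to a gene, at a median of 22.9 kb against 40.1 kb in H4K91Q, 24.1 against 35.4 kb in H4K91R and 17.0 against 24.7 kb in H4WT. Another region of the same list lay within 1 kb of 67.2% (63.7 to 70.5) of wide and 54.7% (53.8 to 55.5) of narrower H4K91Q regions. For H4K91R this was 60.0% and 36.6%, and for H4WT 53.1% and 42.0%. By chromosome, wide regions made up the largest share of the list on Y, at 17.5% of 63 H4K91Q, 8.57% of 140 H4K91R and 5.95% of 84 H4WT regions. In H4K91Q and H4WT the smallest share was on X, at 1.85% of 216 and 0.140% of 716, which rest on only 4 and 1 wide regions. Near the far ends of chromosomes, within 1 Mb of the end of the last annotated gene or beyond it, lay 4.87% (3.46 to 6.66) of wide and 2.45% (2.19 to 2.72) of narrower H4K91Q regions. The shares there were 6.03% (4.30 to 8.19) and 1.46% (1.36 to 1.57) for H4K91R, and 2.29% (1.58 to 3.19) and 1.08% (0.998 to 1.16) for H4WT. Y was kept in these far-end shares, and the whole of Y held 11 wide H4K91Q, 12 wide H4K91R and 5 wide H4WT regions. In the first 4 Mb of chromosomes other than Y lay 1.84% (1.01 to 3.08) of wide and 2.13% of narrower H4K91Q regions, 1.75% (0.875 to 3.10) and 1.16% of H4K91R regions, and 0.554% (0.239 to 1.09) and 0.809% of H4WT regions.

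Wide regions met another line's regions more often than narrower ones. A wide region touches others more easily for its length alone, so the share of summits lying inside a region of the other list is given beside the share with a 1 bp overlap. For wide H4K91Q regions, 91.8% (89.7 to 93.7) met an H4K91R region and 76.5% (73.4 to 79.5) had their summit in one, against 51.3% and 43.6% of narrower ones. Meeting H4WT were 43.0% (39.4 to 46.6) of wide H4K91Q regions, with 29.1% (25.9 to 32.5) by summit, against 17.5% and 14.6% of narrower ones. For wide H4K91R regions, 66.0% (62.2 to 69.7) met H4K91Q and 58.4% by summit, against 15.4% and 13.5% of narrower ones. H4WT was met by 89.4% (86.7 to 91.7) of wide H4K91R regions and held 79.5% of their summits, against 53.5% and 47.2%. For wide H4WT regions, 93.1% (91.6 to 94.3) met H4K91R and 67.0% (64.5 to 69.5) by summit, against 36.5% and 29.6% of narrower ones. Only 5.96% (4.79 to 7.30) of wide H4WT regions met H4K91Q, with 5.26% (4.17 to 6.54) by summit, and the narrower ones were near this at 4.05% and 3.71%. Longer lists are met more often, and H4WT has the longest list and H4K91Q the shortest. With lists of equal length, wide H4K91Q regions met H4WT at 19.1%, and with the full lists but 50% of the region covered, at 10.8%. With lists of equal length, wide H4K91R regions met H4K91Q at 67.7% and H4WT at 62.4%, the opposite order, and wide H4WT regions met H4K91R at 59.0%.

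Over 5 width classes the share of summits inside the other list was higher in each wider class for 5 of the 6 pairings, below the limit of 1000 bp as well as above it. H4K91Q summits lay in H4K91R regions for 33.7% of regions under 300 bp, 48.2% of 300 to 500 bp, 61.1% of 500 to 1000 bp, 72.5% of 1000 to 1500 bp and 85.0% of 1500 bp or more. H4K91R summits in H4K91Q regions ran 8.37, 17.5, 32.6, 50.7 and 81.9% over the same classes. H4WT summits in H4K91Q regions stayed between 3.29 and 4.59% below 1500 bp and reached 9.78% (6.55 to 13.9) at 1500 bp or more. H4K91Q summits in H4WT regions were 21.9% (18.4 to 25.7) at 1000 to 1500 bp and 44.1% (37.8 to 50.6) above that.

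**Figure D3:**
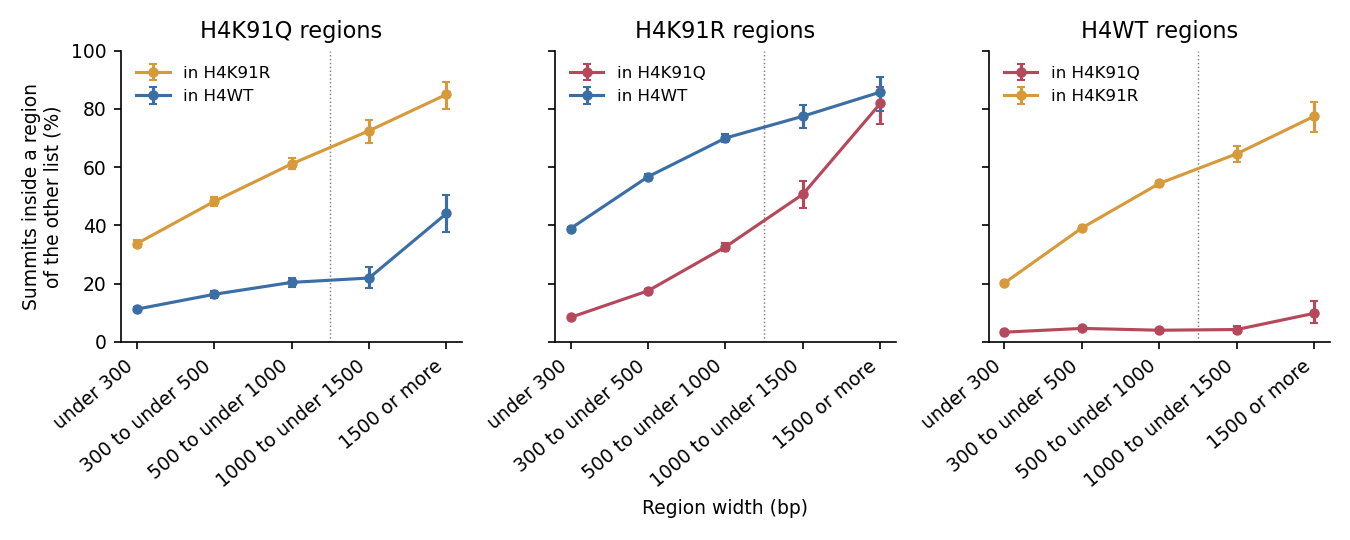
Share of summits inside a region of the other list (vertical axis, percent, with exact 95% intervals) by width of the region (horizontal axis, bp), with 1 panel per list and the dotted line at 1000 bp. H4K91R summits in H4K91Q regions run between 8.37% and 81.9%, and H4WT summits in H4K91Q regions stay under 10%.

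The region met in the other list was often under 1000 bp. Of the wide H4K91Q regions, 29.5% (26.3 to 32.9) met a wide H4K91R region and 62.3% a narrower one only. Against H4WT, 5.80% (4.24 to 7.70) met a wide region and 37.2% a narrower one only. Of the wide H4K91R regions, 36.3% (32.6 to 40.2) met a wide H4K91Q region and 29.7% a narrower one only, while 34.1% (30.4 to 38.0) met a wide H4WT region and 55.2% a narrower one only. Of the wide H4WT regions, 2.98% (2.16 to 3.99) met a wide H4K91Q region and as many a narrower one only, and 15.0% (13.2 to 17.0) a wide H4K91R one, while 78.0% met narrower H4K91R regions only. Where overlapping wide regions were joined across lists they formed 2369 places. Of these, 533 were wide in H4K91Q alone, 224 in H4K91R alone and 1225 in H4WT alone. Another 174 were wide in H4K91Q and H4K91R, 174 in H4K91R and H4WT, 1 in H4K91Q and H4WT, and 38 in all 3.

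Some wide regions met no region of the other lists. There were 59 such H4K91Q regions, of which 88.1% (77.1 to 95.1) lay outside genes and 0 (0 to 6.06) at a gene end. All wide H4K91Q regions had 66.0% and 3.82% at these places, and the 3.82% is within the interval of the 0. Their widest were 1761 bp nearest to Zfp808 (chr13:62228366-62230126), 1691 bp nearest to Cdh6, 1675 bp nearest to Dcaf10, 1550 bp nearest to Asap2 and 1545 bp nearest to Notch3. There were 95 such H4WT regions, of which 61.1% (50.5 to 70.9) lay at a gene end and 0 outside genes, which allows a share of up to 3.81% in the exact interval. All wide H4WT regions had 54.3% and 4.57% at these places, and the 54.3% is within the interval for gene ends. Their widest were all at gene ends: Atxn2, for the RNA-binding protein ataxin-2, at 1692 bp (chr5:121711601-121713292), Dlgap3, for a scaffold of the postsynaptic density, at 1628 bp, Atoh8, a helix-loop-helix factor, at 1626 bp, Ccdc6 at 1472 bp and Cdh4, a cadherin gene, at 1467 bp. H4K91R had 2 such regions, 1146 bp nearest to Asap2 and 1094 bp on the Y chromosome.

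The 38 places wide in all 3 lists included imprinted genes, among them Nnat, Grb10 and Impact. Of the 38 places 9 lay within 1 Mb of the end of the last annotated gene or beyond, 3 of these on the Y chromosome, and 3 others lay in the first 4 Mb of a chromosome. Beside them stand the shares of all wide regions given above, between 2.29 and 6.03% for the far ends and between 0.554 and 1.84% for the first 4 Mb. Zfp629, a zinc finger gene, had widths of 3671 bp in H4K91Q, 3016 bp in H4K91R and 2101 bp in H4WT. Pank4, of the pantothenate kinase family, had 5127, 3984 and 1556 bp. Another place, 28504 bp from Rasgrf1, a gene imprinted in mouse, measured 1560, 1437 and 1154 bp (chr9:89878534-89881004), and was picked out after its values were seen.

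Genes with a wide region at an end numbered 64 for H4K91Q (0.292% of 21887 protein-coding genes), 192 for H4K91R (0.877%) and 1049 for H4WT (4.79%). A gene was counted where a wide region overlapped the 1 kb on either side of either end. Among genes with a region of any width at an end, 23.2% of 276 had a wide one in H4K91Q, 2.32% of 8286 in H4K91R and 8.21% of 12775 in H4WT. By list, 24 genes had one in H4K91Q only, 51 in H4K91R only and 933 in H4WT only, 25 in H4K91Q and H4K91R, 101 in H4K91R and H4WT and 15 in all 3. Of the 64 H4K91Q genes, 63 had an H4K91R region of some width at an end and 57 an H4WT region. Of the 1049 H4WT genes, 36 had an H4K91Q region and 965 an H4K91R region. Beside these counts, 1.26% of all protein-coding genes had an H4K91Q region of any width at an end. The same share was 37.9% for H4K91R and 58.4% for H4WT. Counting wide regions anywhere in a gene or within 1 kb gave 255 genes for H4K91Q (1.17%), 419 for H4K91R (1.91%) and 1415 for H4WT (6.47%). Some genes held several, such as Agrn with 3 in H4K91Q and 4 in H4K91R, Ezr with 5 in H4K91R, and Casz1, a zinc finger regulator, and Plec with 4 each in H4WT. Of 12727 lncRNA genes, 71 held a wide region in H4K91Q (0.558%), 62 in H4K91R (0.487%) and 174 in H4WT (1.37%). A region of any width was held by 575, 2610 and 3521 of them. Of 408 tRNA genes 0 held a wide region in any list. Only 1, 6 and 8 of these had a region of any width, too few to speak to width.

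Imprinted genes often held wide regions in both mutant lists. Of 44 protein-coding imprinted genes, 23 held a wide region in the gene or within 1 kb in H4K91Q, 23 in H4K91R and 12 in H4WT, or 52.3% (36.7 to 67.5), 52.3% and 27.3% (15.0 to 42.8). All protein-coding genes gave 1.17, 1.91 and 6.47%. Neighbouring genes shared regions, so these rest on 18, 21 and 11 separate regions. Of all H4K91Q regions in imprinted genes, 18 of 50 were wide (36.0%, 22.9 to 50.8), against 5.34% of the whole list. For H4K91R the count was 21 of 160 (13.1%, 8.31 to 19.4), against 1.32%, and for H4WT 11 of 182 (6.04%, 3.06 to 10.6), against 2.15%. The non-coding imprinted genes Peg13, Airn and Kcnq1ot1 held wide regions in both mutants, and Peg13 in H4WT as well. The list was drawn up with earlier results of these data known, and its counts are given as description.

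Joining the widest member of each imprinted gene in each list, where it had one, gave 22 places, each wide in at least 1 list by that choice. At these, 18 were wide in H4K91Q, 19 in H4K91R and 10 in H4WT, 17 in both mutants and 7 in all 3. Every place had a region of some width in H4K91R and H4WT, and 18 had one in H4K91Q. The widest region belonged to H4K91Q at 14 places, to H4K91R at 5 and to H4WT at 3, and H4WT had the narrowest at 17. Since the places were chosen by width, this ranking by width is not independent of the choice and is given as description. Peg3 and Usp29, a zinc finger gene and its neighbour, had 3130 bp in H4K91Q, 1808 bp in H4K91R and 649 bp in H4WT (chr7:6727842-6730971). Mest, expressed from the paternal copy, had 2167, 1720 and 630 bp in that order (chr6:30736804-30738970). Igf2r, the receptor that clears insulin-like growth factor 2, holds the start of the antisense RNA Airn, and the place had 2192, 1999 and 983 bp (chr17:12741186-12743377). Kcnq1 with its antisense RNA Kcnq1ot1 had 1703, 1639 and 742 bp (chr7:143295044-143296746). At these 4 places only the mutants had a single region of 1000 bp or more, and the widest H4K91Q region was longer than the widest H4K91R one. H4WT had several shorter regions there: 3 at Peg3 and Usp29, and 2 each at Mest, Igf2r and Kcnq1. H4K91R had 2 regions at Peg3 and Usp29 and 2 at Mest, and H4K91Q had 1 at each place.

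Other imprinted places were nearer in width. Grb10, an adaptor that restrains growth signalling, had 1967 bp in H4K91Q, 1798 bp in H4K91R and 1649 bp in H4WT (chr11:12025285-12027270). Impact, a regulator of translation, had 2048, 2039 and 1761 bp (chr18:12972568-12974630). Zrsr1 inside Commd1, a splicing factor gene in a host gene, had 1539, 1499 and 1218 bp. Gnas, which encodes the stimulatory G protein alpha subunit, had 2 places: 2323, 3214 and 3145 bp at chr2:174297788-174301001, and 3107, 2718 and 738 bp at chr2:174294533-174297639. Peg10 with Sgce had its widest region in H4K91R, 2934 bp, against 1353 bp in H4K91Q and 953 bp in H4WT. At 3 places H4WT was the widest and H4K91Q had none: Cdkn1c, for the cell-cycle inhibitor p57, with 1377 bp in H4K91R and 2393 bp in H4WT, Magel2 with 390 and 1222 bp, and the growth factor gene Igf2 with 384 and 1162 bp.

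**Figure D4:**
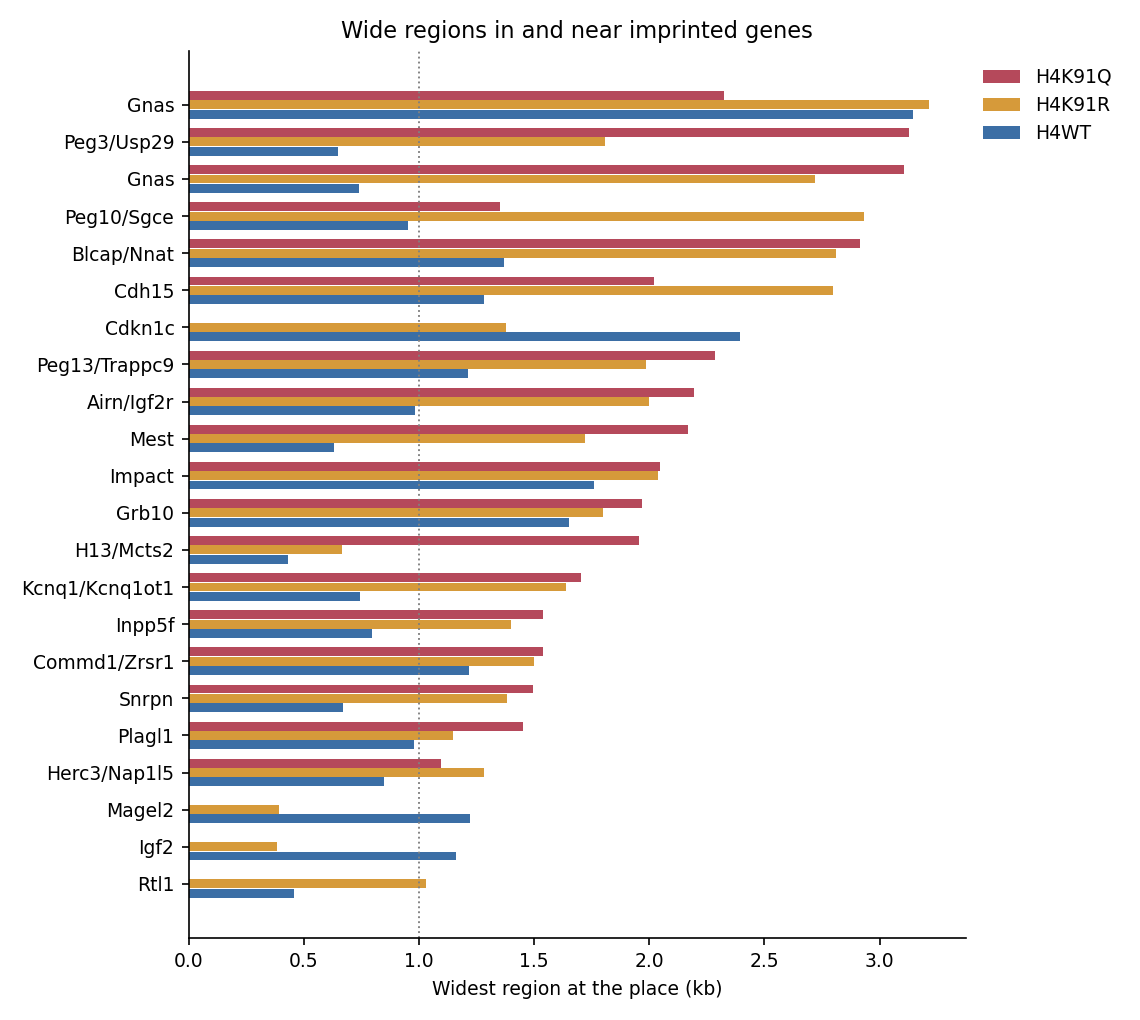
Width in kb (horizontal axis) of the widest region of each list at 22 places in or within 1 kb of imprinted genes, 1 library per bar, with no bar where a list has no region and the dotted line at 1 kb. H4K91Q is widest at 14 places and H4WT narrowest at 17, while Cdkn1c, Magel2 and Igf2 are widest in H4WT. The places were chosen by width, so this ranking is not independent of the choice, and a list can hold several regions at a place.

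Developmental regulators had more wide regions in H4WT than in the mutants, the order of lists that all protein-coding genes have (0.292% in H4K91Q, 0.877% in H4K91R and 4.79% in H4WT). Of 36 neural progenitor genes, mostly transcription factors of the early neural plate, 0 had a wide region at an end in H4K91Q, 11 in H4K91R (30.6%, 16.3 to 48.1) and 21 in H4WT (58.3%, 40.8 to 74.5). A region of any width was at an end of 1 of them in H4K91Q, 32 in H4K91R and 34 in H4WT. Over all protein-coding genes the shares with any width were 1.26, 37.9 and 58.4%. The widest H4WT regions were at the POU factor gene Pou3f1 (1933 bp), En2 of the engrailed family (1907 bp), the zinc finger genes Zic2 (1893 bp) and Zic5 (1853 bp), and Nkx6-1, a homeodomain factor of the ventral neural tube (1811 bp). H4K91R had 1081 bp at Zic2 and 1381 bp at Nkx6-1, and its widest was 1584 bp at Pou3f2, where H4WT had 1042 bp. Sox1, a marker of the neural plate, had an H4WT region of 1640 bp.

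Of 36 mesoderm and endoderm genes, 0 had a wide region at an end in H4K91Q, 1 in H4K91R and 10 in H4WT (27.8%, 14.2 to 45.2, beside 4.79% of all protein-coding genes). A count of 0 or 1 among so few genes is near the 0.292% and 0.877% of all protein-coding genes in the mutant lists. The widest were Foxc2, a forkhead factor, with 2073 bp in H4K91R and 2206 bp in H4WT, then Tbx1, a T-box factor, with 799 bp in H4K91R and 1700 bp in H4WT at chr16:18581381-18583080 (its wide H4K91R region, 1156 bp, lay elsewhere in the gene, over 1327 bp in H4WT), and Cdx2, a caudal homeobox factor, with 1463 bp in H4WT. Of 39 Hox genes, 0, 1 and 8 (20.5% in H4WT, 9.30 to 36.5) had one at an end in the same order of lists. Hoxa10 had 1143 bp in H4K91R and 1807 bp in H4WT, Hoxd11 1797 bp in H4WT, and Hoxd13 1058 bp in H4K91R and 1232 bp in H4WT. Of 36 neuronal genes the counts were 1, 2 and 7 (19.4% in H4WT, 8.19 to 36.0). The H4K91Q one was Nefm, the medium neurofilament gene, where the lists were wide at different places. At chr14:68120321-68122008 H4K91Q had 1688 bp, H4K91R up to 961 bp and H4WT up to 317 bp. At chr14:68123092-68125273 H4K91Q had up to 582 bp, H4K91R 2182 bp and H4WT 1726 bp. Bcl11b and Neurod2, factors of cortical neurons, had 2300 and 2252 bp in H4WT, with 1329 and 1484 bp in H4K91R.

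Among all protein-coding genes with an H4WT region of any width at an end, 8.21% had a wide one. Of 86 ribosomal protein genes, 64 had an H4WT region at an end and 1 of these 64, Rpl7, had a wide one (1527 bp). Taken over all 86 genes this was 1.16% (0.0294 to 6.31), a share to set beside 4.79% of all protein-coding genes rather than 8.21%. Of 30 housekeeping genes, 24 had an H4WT region at an end and 1, the actin gene Actg1, a wide one. Actg1 was wide in all 3 lists, at 1195 bp in H4K91Q, 2835 bp in H4K91R and 1627 bp in H4WT. Of 32 genes in the pluripotency list, 0 had a wide region at an end in H4K91Q and 1 in H4K91R (Tet2, 1001 bp). In H4WT there were 3: Klf2 (1458 bp), Sox2 (1196 bp) and Fgf4 (1062 bp). The ribosomal interval includes the 4.79% of all protein-coding genes, as do those of the housekeeping and pluripotency lists.

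**Figure D5:**
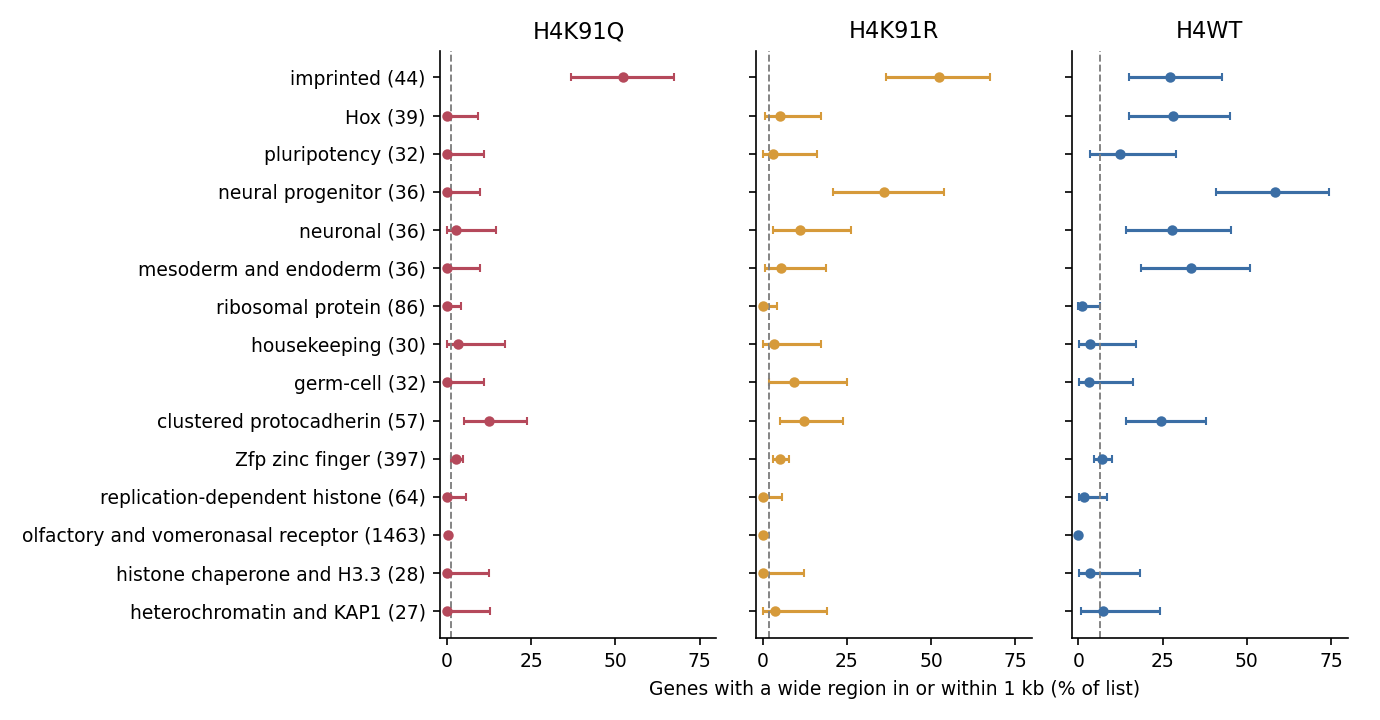
Share of the genes of 15 lists (number of genes in brackets) with a wide region in the gene or within 1 kb (horizontal axis, percent, exact 95% intervals), with 1 panel per tagged protein and the dashed line at the share of all protein-coding genes. Imprinted genes are at 52.3% in both mutants, and neural progenitor genes at 0, 36.1 and 58.3% in H4K91Q, H4K91R and H4WT.

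Germ-cell genes had 0 of 32 at an end in H4K91Q, 3 in H4K91R (9.38%, beside 0.877% of all protein-coding genes) and 1 in H4WT (3.12%, beside 4.79%). The H4K91R ones were Dazl, an RNA-binding protein of germ cells, at 1198 bp, Dpep3 at 1152 bp and Tdrkh, of the piRNA pathway, at 1147 bp, and Dazl had 1225 bp in H4WT. Of 397 Zfp genes, 10 (2.52%, 1.21 to 4.58), 20 (5.04%, 3.10 to 7.67) and 28 (7.05%) held one in the gene or within 1 kb, beside 1.17, 1.91 and 6.47% of all protein-coding genes. Of 64 histone genes 0, 0 and 1 (1.56%) had one at an end, beside 0.292, 0.877 and 4.79% of all protein-coding genes. The H4WT one was the linker histone gene H1f0 with 1321 bp. Clustered protocadherins gave 7, 7 and 14 of 57 within the gene or 1 kb, but these rest on 1, 2 and 1 regions, since the spans of the alpha genes overlap. Of 1463 olfactory and vomeronasal receptor genes, 3 (0.205%), 3 (0.205%) and 0 held one in the gene or within 1 kb. All protein-coding genes gave 1.17, 1.91 and 6.47% by that measure. The 3 mutant genes were Vmn2r1 and Vmn2r2, which share a region of 2337 bp in H4K91Q and 2088 bp in H4K91R, and Vmn2r29 with 1095 and 1025 bp. Histone chaperone genes gave 0, 0 and 1 of 28 at an end (Ubn2, 1434 bp). That is 3.57% in H4WT, beside 4.79% of all protein-coding genes. Heterochromatin genes gave 0, 0 and 0 of 27 at an end. Within the gene or 1 kb they gave 0, 1 (3.70%) and 2 (7.41%). The exact intervals of these include the 1.17, 1.91 and 6.47% of all protein-coding genes. The H4K91R one was the ATPase gene Morc3, with 1129 bp. In H4WT they were the H3K9 methyltransferase gene Ehmt2 and the DNA methyltransferase gene Dnmt3a, with 1610 and 1366 bp.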

How the data were processed

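HA ChIP-seq peak lists of 4 mouse embryonic stem cell lines were used, 1 library per group, grouped by sample title. Peaks were called with MACS2 on mm10, per the submitters' processing notes, separately for every line with its matching input. The sources used here do not give the aligner, the duplicate handling, the MACS2 version or the q threshold. Read depth is unknown. The authors' deposited coordinates set width and place. The deposited fold over local background, a ratio, described regions within a list. The deposited −log10 q served to filter. The deposited score is 10 times that −log10 q rounded down, and was otherwise not used.

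Widths, overlaps and places were computed in Python 3.11.15 (numpy 2.4.6, pandas 2.3.3, scipy 1.17.1). Tagged regions touching an empty-vector peak by 1 bp were left out. Genes were the 21887 protein-coding ones of RefSeq GRCm38.p6 (mm10). That table has no strand or exons, so starts were told from far ends only for genes in the RefSeq promoter table, and exons were not told from introns. Sequence under regions outside promoters was not used here. Width, overlap and placement steps were tested on simulated regions and returned the planted answers.

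The members and the 15 gene lists were chosen with earlier results of these data known, and lists are described by counts with no set test. Named regions were the 10 widest and the 10 of highest fold per list, the 5 widest meeting neither other list, the 10 places wide in all 3 lists by summed width, and up to 5 members per gene list by width; all 22 imprinted places were plotted. A subset of these is described. Alternatives were a width of 1500 bp, a −log10 q of at least 5, empty-vector regions kept, equal numbers of widest regions, placement by summit, windows of 500 bp and 2 kb, overlap by 50% or by summit, and lists of equal length.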

Additional observations from a re-analysis of the deposited data

How the results depend on the processing

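The 18 counts and shares of wide regions were recomputed in 102 alternatives. Of these, 57 stayed within their interval, or within 1.5 times for counts, and 45 moved; the causes were not tested. With a −log10 q of 5 or more, H4K91Q met H4K91R at 86.2% and H4WT at 36.1%, H4K91R met H4WT at 85.4% and H4WT met H4K91R at 79.9%. With empty-vector regions kept, H4WT had 51.5% at gene ends and 5.94% outside genes. At 1500 bp or more, gene ends took 15.5% of H4K91R and 44.2% of H4WT, and outside genes lay 60.7% of H4K91Q, 39.4% of H4K91R and 6.16% of H4WT. Sharing there was 96.8% (H4K91Q in H4K91R), 61.5% (H4K91Q in H4WT), 85.8% (H4K91R in H4K91Q), 92.3% (H4K91R in H4WT), 11.2% (H4WT in H4K91Q) and 98.2% (H4WT in H4K91R), and genes with a wide end numbered 32, 44 and 203. With the 630 widest of each list, H4K91Q met H4WT at 46.8%, H4WT met H4K91Q at 8.89% and H4K91R at 95.9%, and H4WT had 467 genes. Placement by summit gave 51.5% of H4WT at gene ends. Windows of 500 bp gave 12.4% of H4K91R and 28.6% of H4WT at gene ends, and windows of 2 kb gave 7.77% of H4K91Q, 31.7% of H4K91R and 69.5% of H4WT. With 50% of the wide region covered, sharing in the order above was 63.1, 10.8, 54.0, 63.2, 4.22 and 57.0%. By summit it was 76.5, 29.1, 58.4 and 79.5% for the mutants and 67.0% for H4WT in H4K91R. With lists of equal length, H4K91Q met H4K91R at 79.1% and H4WT at 19.1%, H4K91R met H4K91Q at 67.7% and H4WT at 62.4% and H4WT met H4K91R at 59.0%. The order of the lists at gene ends and outside genes was the same in every alternative run for it.

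No paired analysis was possible because the labels give 1 library per line and no replicate number, and leaving out a library would leave a line with none. Width and list length can move with depth, which is unknown, and their part in the differences between lines was not tested.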
